A study of Rattus norvegicus with 6 samples.

Results

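The ATP-binding cassette (ABC) efflux pumps of hepatocytes are membrane proteins that use ATP to carry drugs, conjugates, bile acids and lipids out of the liver cell. The set held 10 genes, of which Abcc1, Abcc3, Abcc4 and Abcc6 sit in the basolateral membrane that faces the blood, and Abcc2, Abcb1a, Abcb1b, Abcb4, Abcb11 and Abcg2 sit in the canalicular membrane that faces the bile. Every probe set whose platform annotation gave 1 of these symbols alone was taken, bright or dim, which gave 10 probe sets for 9 genes. The array held 31099 probe sets in all, and 14217 genes were named alone by at least 1 of them. Abcb1b had no probe set of its own, and 1 probe set annotated to Abcb1a and Abcb1b together is given apart. Of the 10 probe sets, 4 measured basolateral and 6 canalicular pumps.

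The data were liver RNA profiles of 6 male rats of the strain BrlHan:WIST@Jcl(GALAS), with 1 Affymetrix 1-colour array per animal. The treated group was 3 rats given epsilon-momfluorothrin, a pyrethroid insecticide, in powdered diet for 2 weeks, and the control group was 3 rats given the diet with 0 ppm. Sample titles put the dose at 3000 ppm and the diet characteristics at 5000 ppm, so the dose is not settled. The rats arrived at 4 weeks of age, had 1 week of quarantine, and were 7 weeks old when the livers were taken. The labels name no other treatment and no allele in either group.

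A hepatocyte clears a foreign compound by oxidising it, joining it to glucuronate, sulfate or glutathione, and pumping the conjugate out. Canalicular pumps send such conjugates, bile acids and phospholipid into bile, while basolateral pumps return conjugates and bile acids to the blood for the kidney to remove. The nuclear receptors CAR and PXR and the stress sensor NRF2 are known to control several pump genes together with the conjugating enzymes.

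Signals are linear MAS5 intensities, and every array had a trimmed mean of about 100. Array medians were 23.1 to 26.5 in momfluorothrin and 27.04 to 29.4 in control livers (2-sided exact permutation p = 0.1, and 3 against 3 animals can give none smaller). A probe set is called dim in a group where all 3 of its signals lay at or below the array median. The labelled tissue was checked against 9 hepatocyte markers, none of which was dim. Their summed signal was 69483 to 77959 in momfluorothrin and 79752 to 88616 in control livers, with no overlap (exact permutation p = 0.1). The median log2 difference of these markers was -0.20, and centring each array on its median added 0.17 to every log2 difference. In liver pieces, fewer cells of a type and less RNA per cell cannot be told apart.

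The genes Abcb4, Abcb1b and Abcb1a neighbour each other in the rat gene table of assembly GRCr8, and the last 2 are close copies that encode P-glycoprotein. Their promoter windows, from 250 bases before to 50 after the start of each gene, are shown to compare the copies. The probe set annotated to both reads transcripts, so bases shared between the windows do not show why it cannot tell the copies apart. Capitals mark every run of at least 12 bases found in both windows, 29 bases in each. The windows lie at chr4:26397599-26397898 (Abcb1a) and chr4:26279980-26280279 (Abcb1b), both on the minus strand of GRCr8, with sequence from RefSeq.
Abcb1a: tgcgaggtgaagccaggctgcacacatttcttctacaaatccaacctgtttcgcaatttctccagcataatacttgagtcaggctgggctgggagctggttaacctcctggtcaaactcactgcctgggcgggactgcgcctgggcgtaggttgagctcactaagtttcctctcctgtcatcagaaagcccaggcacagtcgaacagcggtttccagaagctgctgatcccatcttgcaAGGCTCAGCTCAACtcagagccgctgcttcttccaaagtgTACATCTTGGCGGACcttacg
Abcb1b: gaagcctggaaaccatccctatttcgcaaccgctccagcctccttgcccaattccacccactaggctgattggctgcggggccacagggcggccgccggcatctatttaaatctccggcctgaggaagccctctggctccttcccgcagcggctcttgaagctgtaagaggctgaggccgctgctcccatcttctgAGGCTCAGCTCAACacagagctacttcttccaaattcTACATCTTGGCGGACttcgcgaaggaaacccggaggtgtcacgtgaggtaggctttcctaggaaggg

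RefSeq promoter windows were found for 8 of the 10 genes, and those of Abcc3 and Abcb11 were not among them. The core of the antioxidant response element, the motif bound by NRF2, was searched as TGACNNNGC on both strands. It occurred in 1 of the 8 windows, that of Abcc2, against 12.1% of 33469 windows of the same length in the table. The Abcc2 window at chr1:252613625-252613924, plus strand of GRCr8, is shown with the match in capitals, and the values of Abcc2 are given with the bile-side pumps.
Abcc2: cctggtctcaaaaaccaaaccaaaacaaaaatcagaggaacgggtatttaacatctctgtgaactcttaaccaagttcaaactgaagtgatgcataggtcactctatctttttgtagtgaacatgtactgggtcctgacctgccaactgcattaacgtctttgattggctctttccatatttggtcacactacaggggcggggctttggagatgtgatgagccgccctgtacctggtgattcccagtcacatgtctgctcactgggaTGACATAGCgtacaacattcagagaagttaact

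The comparison asked how pump transcripts differed after 2 weeks on the momfluorothrin diet. Abcc3 was the 1 pump probe set that rose past the threshold, and no pump fell past it. Among the other probe sets, Abcg2 was higher and Abcc6 lower in momfluorothrin livers with no overlap between the groups, but neither passed the adjusted threshold of 0.05 in limma. Over all 15778 probe sets kept by a filter on low signals, 0.133% were called higher and 0.038% lower, against 1 and 0 pump probe sets. Without the filter, over 31042 probe sets, 0.0677% were called, and the count of members was again 1 of 10. Before adjustment, 3 of the 10 had p under 0.05 in limma (Abcc3, Abcc6 and Abcg2), against 8.93% of all 31042 probe sets.

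**Figure D1:**
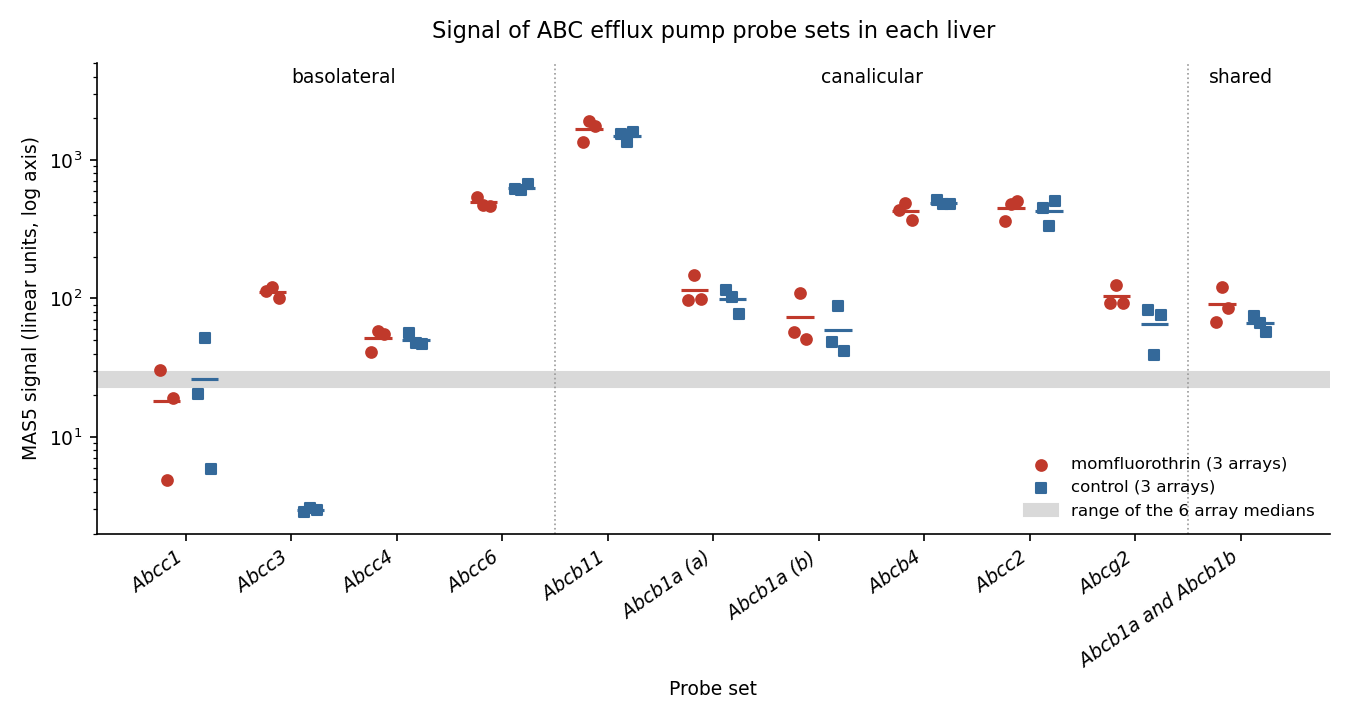
MAS5 signal on a log axis for each pump probe set, with momfluorothrin arrays as circles left of control arrays as squares, short lines at the group means (n = 3 each) and a grey band for the range of the 6 array medians. The 3 Abcc3 circles lie at 100.5 to 122, above the band, and the 3 squares lie at 2.87 to 3.05, below it. Levels can be compared within a probe set, not between probe sets; a and b mark the 2 probe sets of Abcb1a.

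Among basolateral pumps, Abcc3 (MRP3) carries glucuronides and bile acids out of hepatocytes into the blood, and bile duct cells are known to express it as well. Its probe set gave signals of 114, 122 and 100.5 in momfluorothrin replicates 1 to 3, against 2.87, 3.05 and 2.99 in control replicates 1 to 3. All 3 momfluorothrin livers were high, all 3 control livers were dim, and the groups lay far apart. On the scale of each array, Abcc3 stood at the 76.0th to 78.6th percentile of all probe sets in momfluorothrin livers and at the 11.5th to 12.3th in control livers. The signals of each group lay close together, with a coefficient of variation of 9.52% in momfluorothrin and 2.94% in control livers. The control signals lay below the array medians, so their small spread does not measure how alike the Abcc3 levels of these animals were.

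Against the array medians of the control group, below which a signal has only a bound, Abcc3 was at least 3.94-fold higher in momfluorothrin livers. The measured log2 difference was 5.23 ± 0.34 (SE, n = 3 each, adjusted p = 0.000861 in limma), with a 95% confidence interval of 4.46 to 6.00. That value uses control signals below the array medians, and with a pseudocount of 16 it was 2.75. Abcc3 passed the filter through the 3 momfluorothrin arrays alone, so its test was also read without any filter, where the adjusted p was 0.000425. With the filter, the call was lost without momfluorothrin replicate 2 (adjusted p = 0.0593, difference 5.17). Without the filter, it held whichever array was left out (adjusted p of 0.000737 to 0.0254).

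Bile duct markers bear on Abcc3 because bile duct cells express it. Of 8 such markers on the array, Krt7, Cftr, Spp1 and Cldn4 were dim on all 6 arrays. The summed signal of the 8 was 482 to 528 in momfluorothrin and 351 to 364 in control livers (exact permutation p = 0.1, again the lower limit of this design). Of the 8, 3 were bright enough to be tested, 2 higher and 1 lower in momfluorothrin livers. Ggt1, whose product cleaves extracellular glutathione, rose 4.55-fold (n = 3 each, adjusted p = 0.0109 in limma). Epcam, an epithelial adhesion protein, gave 138, 107 and 134 in momfluorothrin replicates 1 to 3 and 67.1, 83.1 and 95.1 in control replicates 1 to 3 (log2 0.63 ± 0.16, SE, n = 3 each, adjusted p = 0.22 in limma). Slc4a2, an anion exchanger, gave 162, 144 and 157 in momfluorothrin replicates 1 to 3 and 217, 168 and 176 in control replicates 1 to 3 (log2 -0.27 ± 0.13, SE, n = 3 each, adjusted p = 0.461 in limma). The 7 markers other than Ggt1 summed to 295 to 338 in momfluorothrin and 312 to 322 in control livers, a sum formed after the values were seen and therefore not tested. The part of bile duct cells in the Abcc3 signal was not tested.

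Abcc6 (MRP6) is known for ATP release from hepatocytes, from which the calcification inhibitor pyrophosphate is made. Its signals were 538, 475 and 468 in momfluorothrin replicates 1 to 3 and 622, 605 and 673 in control replicates 1 to 3. Every momfluorothrin liver lay below every control liver. The log2 difference was -0.36 ± 0.09 (SE, n = 3 each), a change of -22.1%, and did not pass (adjusted p = 0.219 in limma, and 0.172 to 0.532 over 16 alternatives). The 95% confidence interval of the ratio was 0.673 to 0.902. Of all 31042 probe sets, 10.2% were lower in momfluorothrin livers without overlap and 5.23% higher. Among the 10 pump probe sets, 1 was lower without overlap (Abcc6) and 2 were higher (Abcc3 and Abcg2).

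Abcc4 (MRP4) exports cyclic nucleotides, and bile acids together with glutathione. It gave 41.1, 58.1 and 55.1 in momfluorothrin replicates 1 to 3 and 55.9, 47.7 and 47.0 in control replicates 1 to 3. The groups overlapped, with momfluorothrin livers both lowest and highest. The log2 difference was 0.02 ± 0.19 (SE, n = 3 each, adjusted p = 0.973 in limma), and ratios from 0.756 to 1.36 lay within the 95% confidence interval.

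Abcc1 (MRP1), an exporter of glutathione conjugates that resting hepatocytes are known to express little, was the 1 member that did not pass the filter. Its signals were 30.2, 4.91 and 19.1 in momfluorothrin replicates 1 to 3 and 20.6, 52.0 and 5.83 in control replicates 1 to 3. A single array of each group exceeded its array median. In the fit over all probe sets the log2 difference was -0.38 ± 0.85 (SE, n = 3 each, adjusted p = 0.912 in limma). Its interval for the ratio, 0.204 to 2.91, was the widest of the members, and at this signal a change within it was not detectable.

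**Figure D2:**
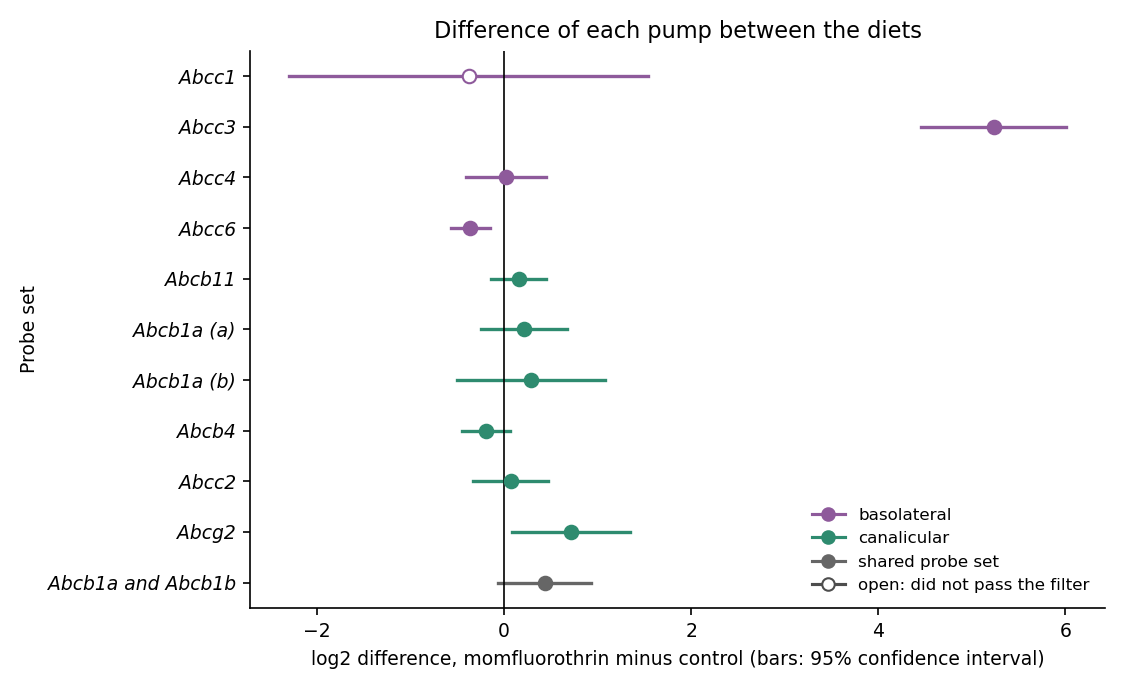
log2 difference of each pump probe set, momfluorothrin minus control, with 95% confidence intervals from limma (3 arrays a group); basolateral pumps are at the top and the open point is Abcc1, from the fit over all probe sets. The interval of Abcc3, 4.46 to 6.00, lies apart from every other interval, and the intervals of Abcc6 (below 0) and Abcg2 (above 0) are the remaining ones that do not reach 0.

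Among canalicular pumps, Abcc2 (MRP2) moves conjugated bilirubin and glutathione conjugates into bile. Its signals were 359.96, 484 and 506 in momfluorothrin replicates 1 to 3 and 449.9, 336 and 504 in control replicates 1 to 3. The ranges were almost the same in both groups. Abcc2 had a log2 difference of 0.07 ± 0.18 (SE, n = 3 each, adjusted p = 0.903 in limma), with ratios from 0.797 to 1.38 within the 95% confidence interval.

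Abcb11, the bile salt export pump, gave 1359.7, 1926 and 1763 in momfluorothrin replicates 1 to 3 and 1547, 1352 and 1596 in control replicates 1 to 3. Momfluorothrin replicates 2 and 3 stood above all control livers, and replicate 1 stood among them. This gave a log2 difference of 0.16 ± 0.13 (SE, n = 3 each, adjusted p = 0.677 in limma), and the interval of the ratio was 0.907 to 1.37.

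Abcb4, the rodent Mdr2 flippase that delivers phosphatidylcholine to bile, gave 436, 489 and 369.8 in momfluorothrin replicates 1 to 3 and 514, 479 and 479 in control replicates 1 to 3. The control livers lay close together (coefficient of variation 4.12%), and momfluorothrin replicate 2 lay among them. Abcb4 differed on the log2 scale by -0.19 ± 0.11 (SE, n = 3 each, adjusted p = 0.5495 in limma), with an interval of the ratio of 0.731 to 1.05.

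Abcg2 (BCRP) exports sulfate conjugates and urate. Its signals were 92.5, 125 and 93.0 in momfluorothrin replicates 1 to 3 and 82.7, 38.8 and 75.4 in control replicates 1 to 3. All momfluorothrin livers lay above all control livers, and control replicate 2 was the lowest by far. The log2 difference was 0.72 ± 0.28 (SE, n = 3 each), a ratio of 1.64 with an interval of 1.06 to 2.54, and did not pass (adjusted p = 0.387 in limma). Without control replicate 2 the difference was 0.37.

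Abcb1a encodes one of the rodent forms of P-glycoprotein, a pump for bulky hydrophobic drugs. Its first probe set gave 97.1, 147 and 99.4 in momfluorothrin replicates 1 to 3 and 115, 102 and 77.3 in control replicates 1 to 3 (log2 0.21 ± 0.20, SE, n = 3 each, adjusted p = 0.719 in limma). Its second gave 57.6, 110.4 and 51.1 in momfluorothrin and 48.8, 88.4 and 41.5 in control replicates 1 to 3 (log2 0.29 ± 0.35, SE, adjusted p = 0.786 in limma). In both probe sets the groups overlapped and momfluorothrin replicate 2 was the highest liver.

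The probe set annotated to Abcb1a and Abcb1b gave 67.5, 122 and 84.7 in momfluorothrin replicates 1 to 3 and 74.6, 66.5 and 57.0 in control replicates 1 to 3. Momfluorothrin replicate 2 again stood highest, and replicate 1 lay among the control livers. The log2 difference was 0.43 ± 0.22 (SE, n = 3 each, adjusted p = 0.486 in limma). The Abcb1b transcript was read through this probe set alone, where it cannot be told apart from Abcb1a.

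Momfluorothrin replicate 2 was the highest of the 3 momfluorothrin livers in 7 of the 10 pump probe sets, on both membranes. Over all kept probe sets it was the highest in 34.0%. In the control group no animal held such a place, with replicate 1 highest in 4 and replicates 2 and 3 in 3 each. The pump probe sets come from the same 6 arrays and are not independent readings of an animal, so no test was made.

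**Figure D3:**
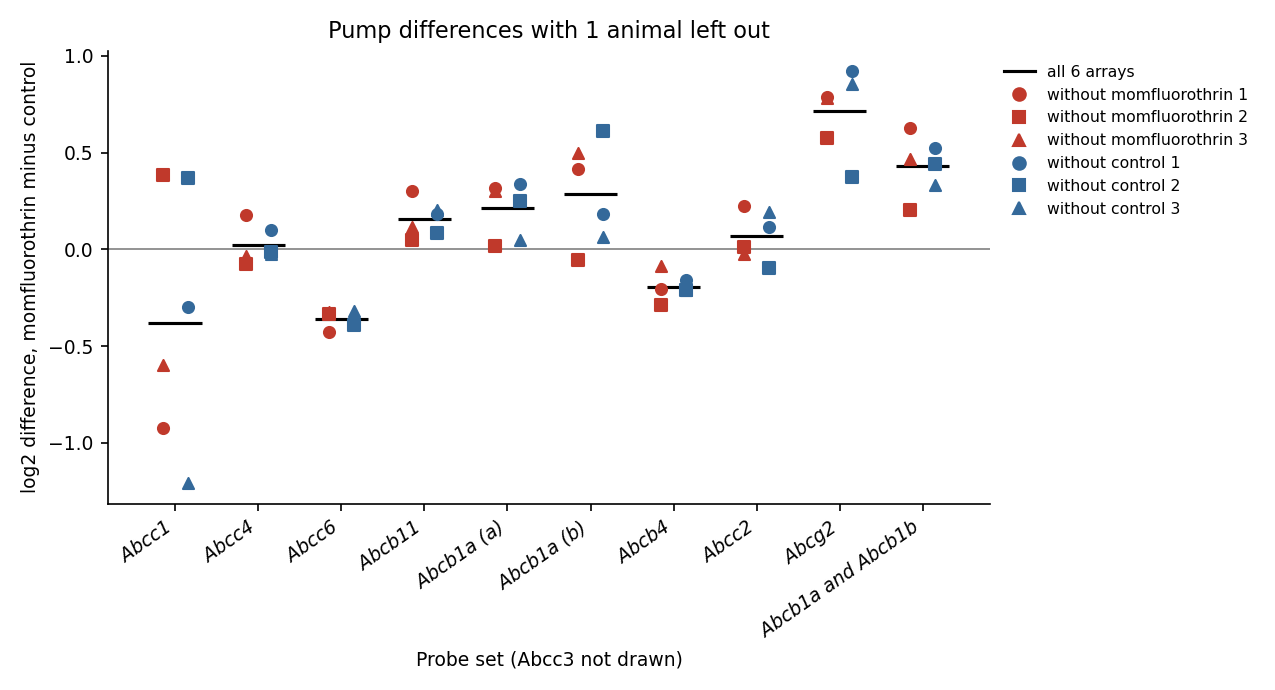
log2 difference (momfluorothrin minus control) of each pump probe set with all 6 arrays (black line) and with 1 array left out in turn, momfluorothrin arrays in red and control arrays in blue; Abcc3, at 5.17 to 5.31, is not drawn. Abcc6 stays below 0 and Abcg2 above 0 whichever array is left out, while Abcc1, Abcc2, Abcc4 and the second Abcb1a probe set lie on both sides of 0.

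The membranes were compared by counts and medians, without a test, since members are not replicates. Of 4 basolateral probe sets 2 were higher and 2 lower in momfluorothrin livers, with a median log2 difference of -0.17, a range of -0.38 to 5.23 and 1 called. Of 6 canalicular probe sets 5 were higher and 1 lower, with a median of 0.18, a range of -0.19 to 0.72 and none called. The median over all 31042 probe sets was -0.08. Centring each array on its median added 0.17 to every log2 difference, which put the basolateral median at 0.00 and the canalicular median at 0.36. The sign of the basolateral median also turned without control replicate 2 (0.18) or momfluorothrin replicate 2 (0.16). Over the members that passed the filter, and so without Abcc1, the basolateral median was 0.02 and the canalicular median stayed at 0.18. The 3 basolateral pumps other than Abcc3 ranged from -0.38 to 0.02.

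Genes that act with the pumps were taken from lists. In the list of CAR and PXR target enzymes 5 of 12 tested were called higher, and in the NRF2 list 2 of 10. Over kept probe sets 0.133% were called higher. None of the transporters, scaffolds or transcription factors in the lists passed. The lists name known regulators, and which regulator acted in these livers was not tested. Ces2c, a carboxylesterase, gave 976, 1008 and 1081 in momfluorothrin replicates 1 to 3 and 243, 306 and 240.2 in control replicates 1 to 3 (log2 1.97 ± 0.11, SE, n = 3 each, adjusted p = 0.000591 in limma). Ugt2b1, which makes glucuronides of the kind that Abcc3 carries, was higher by 1.64 ± 0.13 on the log2 scale (SE, n = 3 each, limma adjusted p = 0.00202), and the aldehyde reductase Akr7a3, the aldehyde dehydrogenase Aldh1a1 and the epoxide hydrolase Ephx1 had log2 differences of 1.94, 1.27 and 1.06 (adjusted p of 0.00202, 0.0186 and 0.0109 in limma). Of the other 7 in the CAR and PXR list, 5 were lower and 2 higher, none past the threshold. The lower ones were Sult1a1, a sulfotransferase (-0.20), and the cytochromes P450 Cyp3a23-3a1 (-0.17), Cyp3a2 (-0.16), Cyp2c11 (-0.14) and Cyp2c6v1 (-0.042), on the log2 scale with adjusted p of 0.367 to 0.828 in limma. Probe sets for Cyp2b1 and Cyp2b2 alone were not among those used here. The medians were 0.26 for the CAR and PXR list and 0.35 for the NRF2 list, against -0.03 over kept probe sets. The NRF2 targets that rose were the glutathione transferases Gstm1 (0.69 ± 0.07) and Gsta4 (0.58 ± 0.07), with adjusted p of 0.0109 and 0.0206 in limma. Of the 10 tested NRF2 targets, 8 were higher and 2 lower, Nqo1 (-0.089) and Gclc (-0.087). Hmox1 (0.018), Txnrd1 (0.037), Txn1 (0.30), Gclm (0.39), Srxn1 (0.43) and Gstp1 (1.28) were higher and did not pass. Adjusted p of those that did not pass was 0.224 to 0.975 in limma. Before adjustment, 7 of 12 in the CAR and PXR list and 5 of 10 NRF2 targets had p under 0.05 in limma, against 11.6% over kept probe sets. The lists were chosen with earlier results of these data known, so these counts are descriptive and are no test of a list.

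The list of transcription factors that control pump genes also held Keap1, a regulator of NRF2 and not itself a transcription factor. Of the 11 genes tested from this list none passed, and 3 had an unadjusted p under 0.05 in limma. Over all kept probe sets that share was 11.6%, against which the counts at an unadjusted p in this list and the following ones are to be read. Nr0b2 (SHP), a repressor downstream of the bile acid receptor, gave 584, 1072 and 615 in momfluorothrin replicates 1 to 3 and 338, 494 and 205 in control replicates 1 to 3, with no overlap (log2 1.16 ± 0.32, SE, n = 3 each, adjusted p = 0.241 in limma). Nfe2l2, the gene of NRF2, lay the other way at -0.45 ± 0.13, also without overlap (adjusted p = 0.248 in limma). Of 9 genes in the scaffold list, which held membrane scaffolds and vesicle-trafficking genes, none passed and 2 had an unadjusted p under 0.05 in limma. These were Pdzk1 at -0.42 ± 0.10 and Nherf1 at 0.33 ± 0.11 (SE, adjusted p = 0.199 and 0.333 in limma).

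Among 7 sinusoidal uptake transporters, which load the hepatocyte from the blood, none passed (median -0.06) and 1 had an unadjusted p under 0.05. That was Slc22a7, an organic anion transporter, at -0.34 ± 0.08 (SE, n = 3 each, adjusted p = 0.199 in limma), and Slc22a8, a related transporter, had -0.15 ± 0.09. Of the other efflux and lipid-flipping proteins, 4 of 9 were bright enough to be tested, all 4 were lower (median -0.13) and none had an unadjusted p under 0.05. The copper pump Atp7b had the smallest p among them at -0.46 ± 0.21 (adjusted p = 0.44 in limma), followed by Tmem30a, a flippase subunit, at -0.17 ± 0.10. Slc51a, a subunit of the basolateral bile acid exporter, and Slc47a1, an exporter of organic cations, were dim on all 6 arrays.

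Of 30 other ABC genes on the array, 23 were tested and none passed, with 10 higher and 13 lower and a median of -0.01, and 3 had an unadjusted p under 0.05 in limma. The smallest p belonged to Abcc9, the sulfonylurea receptor of a potassium channel, which gave 103, 70.9 and 82.7 in momfluorothrin replicates 1 to 3 and 112, 129 and 167 in control replicates 1 to 3 (log2 -0.66 ± 0.19, SE, n = 3 each, adjusted p = 0.254 in limma). Abcc5, a cyclic nucleotide exporter, followed at -0.74 ± 0.22 (adjusted p = 0.272 in limma). In the bile acid synthesis list 4 of 8 were higher and 4 lower, 4 had an unadjusted p under 0.05 in limma, and 1 passed. That was Cyp8b1, the sterol 12-alpha-hydroxylase, which fell at -0.59 ± 0.08 (adjusted p = 0.0443 in limma), with a list median of -0.04. Cyp7a1 (0.91 ± 0.39) and Akr1d1 (0.41 ± 0.12) lay the other way and did not pass (adjusted p = 0.429 and 0.259 in limma).

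**Figure D4:**
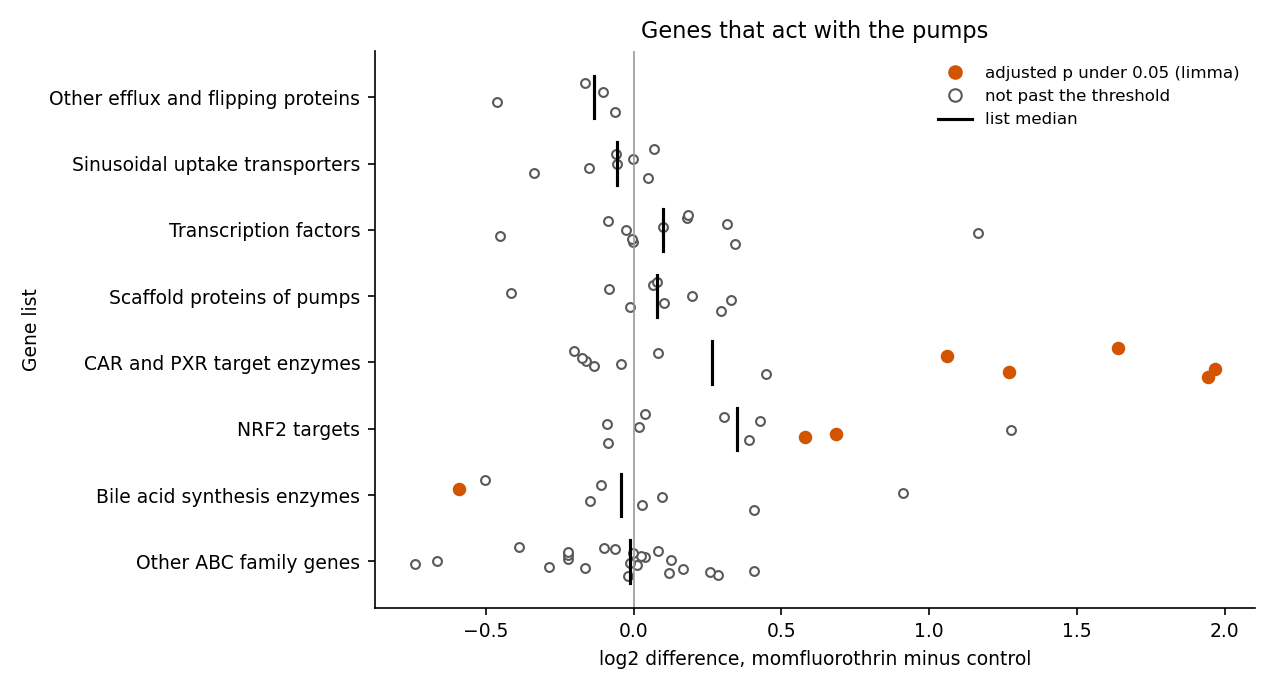
log2 difference, momfluorothrin minus control, of every tested gene in 8 lists, 1 point a gene, filled where limma's adjusted p was under 0.05, with the list median as a black bar. Filled points lie in the CAR and PXR list (5 of 12), the NRF2 list (2 of 10) and the bile acid synthesis list (1 of 8).

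The genes most like Abcc3 over the 6 arrays were sought by the root mean square difference of log2 signals, each set to a control mean of 0. Only kept probe sets with 1 gene symbol, and not a predicted locus name, were ranked. The next largest log2 difference after Abcc3, 3.26, belonged to a probe set without a single symbol, which was not ranked. The nearest were Gsta3, an alpha-class glutathione transferase, at 1.84 log2 units, and Ptgis, prostacyclin synthase, at 1.89. Cryl1, a dehydrogenase of the glucuronate pathway, followed at 2.03. Their log2 differences of 2.81, 2.73 and 2.39 all lay well below the 5.23 of Abcc3. That 5.23 rests on control signals below the array medians, and the ranking depends on it. Gsta3 gave 480.02, 684 and 787 in momfluorothrin replicates 1 to 3 and 136, 143 and 38.6 in control replicates 1 to 3 (log2 2.81 ± 0.45, SE, n = 3 each), and did not pass (adjusted p = 0.0636 in limma). Ptgis gave 26.3, 50.9 and 101 in momfluorothrin and 7.67, 10.9 and 5.50 in control replicates 1 to 3, a wider spread than that of Abcc3 (adjusted p = 0.113 in limma). Ptgis was dim in control livers and passed the filter through the momfluorothrin arrays alone. Cryl1 gave 311, 406 and 421 in momfluorothrin and 47.4, 94.5 and 81.6 in control replicates 1 to 3 (adjusted p = 0.0109 in limma).

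Markers of other liver cells were read beside these results. Summed signals overlapped between the groups for 8 Kupffer cell and macrophage markers (1772 to 2014 in momfluorothrin, 1759.5 to 2157 in control livers), 8 endothelial markers (2706 to 2928 and 2442 to 2780), 10 stellate cell and fibroblast markers (2511 to 2735 and 2331 to 2978), 8 lymphocyte and neutrophil markers (84.6 to 132 and 111 to 132) and 5 red blood cell markers (3511 to 5205 and 3980.3 to 4201), with exact permutation p of 0.3 to 1. Of the lymphocyte and neutrophil markers 5 were dim on all arrays. The hepatocyte markers were lower in each of the 9 genes tested, none past the threshold and 5 with an unadjusted p under 0.05 in limma, with Hpx at -0.28 ± 0.07 and Serpina1 at -0.22 ± 0.07 (SE, adjusted p = 0.219 and 0.304 in limma). The part of these levels in the pump values was not tested.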

How the data were processed

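Gene expression was measured in 6 rat livers on Affymetrix 1-colour arrays from biotin-labelled cRNA. The authors deposited linear intensities per probe set. The submitters' processing notes name MAS5, with no version in the sources used here. With 2% of probe sets trimmed at each end, all 6 arrays averaged about 100, and they were not normalized again. No detection calls were used.

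After 57 control probe sets were left out, probe sets above the array median on at least 3 of 6 arrays were kept. The log2 signals, with no pseudocount, went into limma 3.58.1 (R 4.3.3) with lmFit and eBayes, an intensity trend, 2-sided tests and no block. P-values were adjusted by Benjamini-Hochberg across the 15778 probe sets kept, at a threshold of 0.05. The fit was tested on simulated data. Gene names came from the platform annotation, with symbols updated through assembly GRCr8. List genes were read from their brightest kept probe set by mean log2 signal. Python 3.11.15 and scipy 1.17.1 made the other values. The number of arrays limits the precision.

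The members and lists were chosen with earlier results of these data known. Named were all members, pathway list genes past the threshold or else the 2 with the smallest p, the 2 markers of a cell type with the smallest p, and the 3 genes most like Abcc3. Slc51a, Slc47a1, Slc4a2, Cyp7a1, Akr1d1 and the dim bile duct markers were named after their values were seen. So were the CAR and PXR genes that were lower and the NRF2 targets that did not pass. Alternatives changed the filter, scaling, pseudocount, variance model, array weights and pairing, and left out each array. Fits that combined these with no filter were added after seeing the data. A comparison of member proteins that had been planned was not made here. Each array came from its own animal, and the labels name no litter, cage, batch or hybridisation day.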

Additional observations from a re-analysis of the deposited data

How the results depend on the processing

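Abcc3 kept its direction in every alternative that tested it, with a log2 difference of 2.75 with a pseudocount of 16 and of 5.17 to 5.41 otherwise. Its call was lost without momfluorothrin replicate 2 (adjusted p = 0.0593), and leaving out each array in turn gave 5.17 to 5.31. Under the filter on the mean over all arrays Abcc3 was not tested, so 0 members were called, although Abcc6 and Abcg2 had unadjusted p under 0.05 in limma. The count of called members was otherwise 1 higher and 0 lower, and 0 to 1 higher with an array left out. The basolateral median was 0.02 over the members that passed the filter at the array median. It was 2.44 over the members above the 70th percentile, where Abcc3 and Abcc6 alone remained. With an array left out the basolateral median was -0.18 to 0.18 and the canalicular median 0.01 to 0.31.

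Counts over all probe sets, 21 higher and 6 lower, moved more. They were 65 higher with median centring, 3 higher and 0 lower in limma without an intensity trend (where 1097 were lower at an unadjusted p under 0.05), 13 lower with robust eBayes and 3 lower without a filter. With an array left out they were 3 to 23 higher and 2 to 6 lower. A replicate block gave 10 higher, with Abcc3 called at an adjusted p of 0.0136, and changed no call among the members. Same-numbered animals correlated in their deviations at -0.10, 0.10 and -0.06, and only replicate 2 correlated best with its own number, so the numbers were not treated as pairs.

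Some pump differences turned sign with an array left out, and for the pumps that passed the filter they did so with or without it. Abcc2 (range -0.098 to 0.22) was -0.098 without control replicate 2 and -0.022 without momfluorothrin replicate 3. Abcc4 (range -0.074 to 0.18) was -0.012 and -0.023 without control replicates 2 and 3, and -0.074 and -0.035 without momfluorothrin replicates 2 and 3. The second Abcb1a probe set (range -0.056 to 0.61) was -0.056 without momfluorothrin replicate 2. Abcc1, read without the filter (range -1.21 to 0.39), was 0.37 without control replicate 2 and 0.39 without momfluorothrin replicate 2. None of these passed the threshold, and the cause was not tested. With 3 arrays a group, Abcc1 had the widest interval of the members, and its signals lay on both sides of the array medians.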
